A study of Mus musculus with 8 samples.

Results

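The bitter taste receptor genes of the mouse were followed in RNA-seq libraries of sorted medullary thymic epithelial cells (mTECs). The members were all genes of the count table with a symbol starting with Tas2r after Ensembl gene identifiers were matched to GENCODE symbols. They were 35 of the 25466 genes in the table, 31 of them protein-coding and 4 annotated as pseudogenes (Tas2r111-ps2, Tas2r141-ps4, Tas2r142-ps5 and Tas2r145-ps3). The annotation lists 40 such genes. The other 5 (Tas2r122, Tas2r124, Tas2r136, Tas2r139 and Tas2r146-ps1) had no row, and the table lists only genes with a count in at least 2 libraries. The rule reads the symbol alone.

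Tas2r proteins are G protein-coupled receptors that bind bitter compounds on the surface of taste receptor cells. Rtp and Reep proteins help taste and odorant receptors reach the cell surface, and a bound receptor acts through gustducin, the G protein built from Gnat3 with Gnb3 or Gnb1 and Gng13. Gustducin signalling opens the cation channel Trpm5 by way of phospholipase Plcb2 and the IP3 receptor Itpr3. Tuft cells, chemosensory epithelial cells that depend on the transcription factor Pou2f3, use the same cascade outside the tongue, and the thymic medulla holds mTECs that resemble them.

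All 8 libraries came from wild-type BL6N6 mice of 4 to 6 weeks of age, and none was treated. The cells were CD45-negative, Epcam-positive and CDR1-negative, and were split by surface Tspan8, a tissue-restricted antigen, and by MHC class II into Tspan8neg MHCIIlo, Tspan8neg MHCIIhi, Tspan8pos MHCIIhi and Tspan8pos MHCIIlo mTECs, with 2 libraries per subset. MHCIIlo gates hold both immature mTECs and mTECs past the mature stage, so a difference between MHCII levels is not one between 2 single cell states. The labels call the libraries of a subset biological replicates without saying whether they came from separate mice, so all p-values measure only the spread between these libraries. In such bulk samples, fewer cells that express a gene and less RNA of it per cell cannot be told apart.

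Library totals ran from 1941518 counts (Tspan8pos MHCIIlo replicate 1) to 7783841 (Tspan8pos MHCIIlo replicate 2). A single Tas2r gene gave at most 118 counts in a library, so most values rest on few counts. Of the 10 mTEC markers, 4 (Aire, Cd80, Fezf2 and H2-Ab1) were called higher in MHCIIhi at both Tspan8 states. In Tspan8neg mTECs, 3 others (Ccl21a, Krt14 and Krt5) were called lower in MHCIIhi, and in Tspan8pos mTECs none was. Tspan8 was called higher in both Tspan8pos subsets. Tspan8 and H2-Ab1, an MHC class II gene, thus followed the gates. Between the MHCIIlo subsets, H2-Ab1 (log2 fold change -1.91), Aire, Ccl21a and Krt14 were called lower in Tspan8pos, and Epcam, Krt8 and Tspan8 higher. The same test and thresholds, given below with the first comparison, were used for these markers.

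Every Tas2r gene has a single exon, of 882 to 1158 bases, and none overlaps another annotated gene on either strand. On GRCm38 the genes lie in 6 groups separated by more than 1 Mb. Tas2r134 is alone on chromosome 2 and Tas2r119 on chromosome 15. On chromosome 6, Tas2r118 lies by itself at chr6:23969161-23970060, Tas2r137, Tas2r108 and Tas2r138 lie within chr6:40491233-40613310, 5 genes within chr6:42140936-42435464, and the remaining 29 within chr6:131629823-133096015. The genes are related but distinct, with pairwise transcript identities from 37.3% to 87.7%. Of all stretches of 54 bases, the length of a read, 30 of the 35 genes shared none with a transcript of another gene. The exceptions were Tas2r111-ps2 with 95.8% of its stretches shared, Tas2r117 with 36.7%, Tas2r110 and Tas2r123 with 7.1% each, and Tas2r109 with 4.8%. The counts of these 5 genes depend on how the authors' software split shared reads. Some stretches of Tas2r117 and Tas2r109 are shared with Gm18690, which is not a member and had 109 counts over all libraries. Tas2r111-ps2 shares stretches with Gm18689, which had no row.

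RefSeq gives a start site, with 250 bases before it and 50 after it, for 31 Tas2r genes, 28 of them in the count table. The sequences below are shown because they hold the octamer ATGCAAAT or its reverse complement ATTTGCAT, the letters bound by POU factors of the octamer-binding class, to which Pou2f3 belongs. Each is a stretch of at most 60 bases on the strand of the gene, 5′ to 3′, on GRCm38.p6, with the octamer in capitals.
Tas2r118, chr6:23970151-23970210, minus strand: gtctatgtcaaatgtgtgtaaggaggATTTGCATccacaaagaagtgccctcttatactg
Tas2r137, chr6:40491020-40491079, plus strand: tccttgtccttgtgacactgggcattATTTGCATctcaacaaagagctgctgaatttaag
Tas2r108, chr6:40493420-40493479, plus strand: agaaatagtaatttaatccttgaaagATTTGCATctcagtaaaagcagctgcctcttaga
Tas2r144, chr6:42215145-42215204, plus strand: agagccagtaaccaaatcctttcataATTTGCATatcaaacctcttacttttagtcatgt
Tas2r135, chr6:42405360-42405419, plus strand: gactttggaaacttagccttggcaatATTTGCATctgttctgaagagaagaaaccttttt
Tas2r126, chr6:42434315-42434374, plus strand: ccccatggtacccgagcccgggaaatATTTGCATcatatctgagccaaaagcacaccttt
Tas2r107, chr6:131660352-131660399, minus strand: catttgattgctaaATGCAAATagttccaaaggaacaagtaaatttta

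In 6 of these 7 windows the octamer reads ATTTGCAT on the strand of the gene, between 116 (Tas2r118) and 186 bases (Tas2r126) before the RefSeq start site. For Tas2r137, Tas2r108 and Tas2r135 this site lies downstream of the gene start in GENCODE, from which the distance is shorter. Transcription starts were not measured here. Tas2r107 is the exception, with ATGCAAAT at 228 bases. The octamer stood in 7 of the 31 Tas2r windows (22.6%), in 1.74% of all 32851 windows, and in 2.83% of the 11926 windows with a GC content in the range of the Tas2r windows (28.7% to 49.0%). Without its last base (ATGCAAA or TTTGCAT, which every octamer match also holds), it stood in 38.7% of Tas2r windows, 4.63% of all windows and 7.61% of those in the GC range. TATAAA or its reverse complement TTTATA stood in 32.3%, 13.6% and 25.8%. The octamer was in 3 of 11 windows of genes with enough counts to be tested (27.3%) and in 4 of 20 windows of the others. A match describes these letters only and is not a bound site.

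Taken as a sum, Tas2r counts were high in both MHCIIlo subsets and low in both MHCIIhi subsets. Tspan8neg MHCIIlo libraries held 286 and 361 Tas2r counts, or 82.7 and 91.9 CPM (counts scaled to a library total of 1e+06). Tspan8pos MHCIIlo libraries held 117 and 648, or 60.3 and 83.2 CPM. Tspan8pos MHCIIhi libraries held 52 and 72 counts (9.57 and 13.9 CPM), and Tspan8neg MHCIIhi libraries only 6 and 32 (1.32 and 4.38 CPM). At each Tspan8 state both MHCIIlo libraries lay above both MHCIIhi libraries. The 2 MHCIIlo subsets overlapped, and both Tspan8pos MHCIIhi libraries lay above both Tspan8neg MHCIIhi libraries. The mean sum was 87.3 CPM ± 6.46 (SD, n = 2) in Tspan8neg MHCIIlo, 2.85 ± 2.17 (SD, n = 2) in Tspan8neg MHCIIhi, 11.8 ± 3.10 (SD, n = 2) in Tspan8pos MHCIIhi and 71.8 ± 16.3 (SD, n = 2) in Tspan8pos MHCIIlo. These means give a ratio of MHCIIlo to MHCIIhi of 30.6 in Tspan8neg and 6.10 in Tspan8pos mTECs. The first ratio leans on few counts: it was 19.9 without Tspan8neg MHCIIhi replicate 1 and 66.3 without replicate 2. Between 2 subsets of 2 libraries each, no exact permutation test can reach a p of 0.05, and none is given for a sum.

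**Figure D1:**
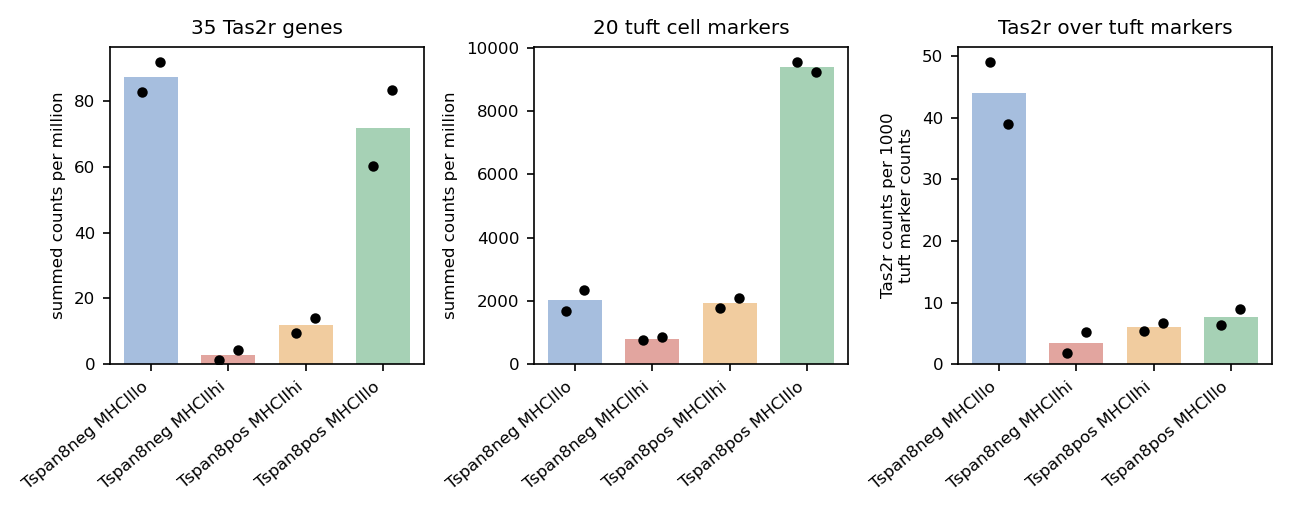
Summed CPM of the 35 Tas2r genes (left), summed CPM of 20 tuft cell markers (middle) and Tas2r counts per 1000 tuft marker counts (right) in the 4 mTEC subsets. Bars are means of 2 libraries and points are single libraries; the Tas2r sums of the MHCIIlo subsets overlap, while tuft markers reach 9547 and 9240 CPM in Tspan8pos MHCIIlo and at most 2356 CPM in a library of another subset.

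The number of receptor genes seen in a library followed the same order. A count was present for 31 and 30 of the 35 genes in Tspan8neg MHCIIlo, 21 and 31 in Tspan8pos MHCIIlo, 16 and 17 in Tspan8pos MHCIIhi, and 5 and 12 in Tspan8neg MHCIIhi. Scaled to the depth of the smallest library, the expected numbers were 27.5 and 25.8, 21 and 25.3, 10.3 and 12.2, and 2.38 and 6.02. The subsets thus kept this order at equal depth. The MHCIIlo subsets overlapped before this scaling and not after it, where their nearest libraries stood at 25.8 and 25.3. In Tspan8neg MHCIIhi, 21 of the 35 genes had no count in either library, which allows a level of up to 3 counts over the subset, or 0.253 CPM. Of all 25466 genes in the table, 22705 and 23570 were detected in these libraries, and genes of like depth were not compared.

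**Figure D2:**
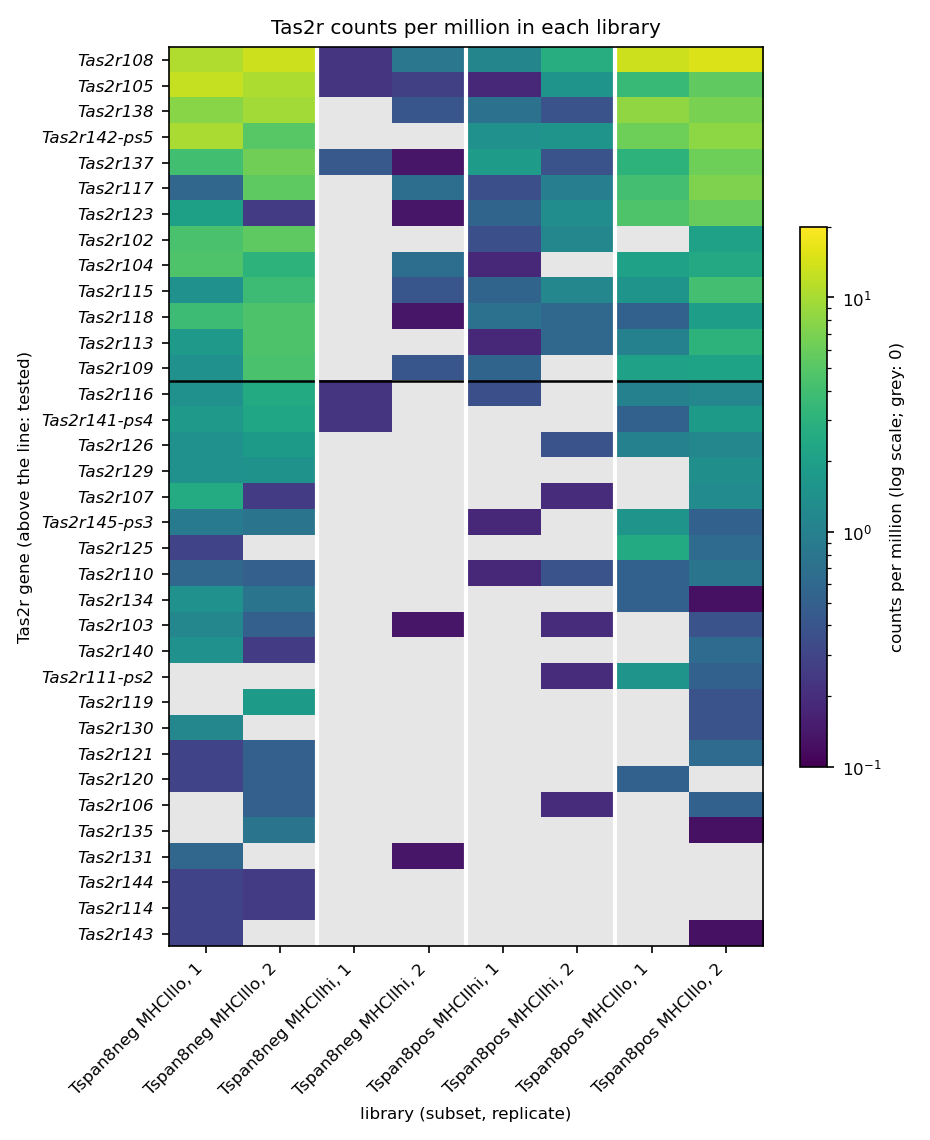
CPM of each of the 35 Tas2r genes (rows) in each of the 8 libraries (columns), on a logarithmic colour scale with 0 in grey. Rows above the black line are the 13 genes with enough counts to be tested; the MHCIIlo columns on the left and right are filled for most genes, and most of the grey lies in the MHCIIhi columns.

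A few receptors stood above the rest. Per kilobase of transcript, Tas2r105 and Tas2r108 led in Tspan8neg MHCIIlo, at 12.9 and 10.8 CPM per kilobase in the 2 libraries for Tas2r105 and 10.6 and 13.1 for Tas2r108. These levels overlapped, as did those of Tas2r138 (7.84 and 9.71) and the pseudogene Tas2r142-ps5 (10.9 and 5.48), next in order. In Tspan8pos MHCIIlo, Tas2r108 stood first at 13.2 and 14.97 CPM per kilobase, above both libraries of every other member. Tas2r142-ps5 followed at 6.65 and 8.71 and Tas2r138 at 8.27 and 6.97, which overlapped, while Tas2r105 was at 3.74 and 5.73. Tas2r108 also had the highest mean in both MHCIIhi subsets, at 0.514 CPM per kilobase in Tspan8neg and 1.88 in Tspan8pos, but its libraries overlapped those of others. In replicate 1 of Tspan8pos MHCIIhi, Tas2r137 (1.72) and Tas2r142-ps5 (1.58) stood above Tas2r108 (1.09). In replicate 1 of Tspan8neg MHCIIhi, Tas2r137 (0.409), Tas2r116 (0.239), Tas2r141-ps4 (0.232) and Tas2r105 (0.228) stood above it (0.217). That library held 6 Tas2r counts, and apart from Tas2r137, with 2 counts, each of these genes had 1. At the other end, Tas2r143, Tas2r144 and Tas2r114 had 2 counts each in all 8 libraries together.

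The 2 genomic groups with the most counts held similar shares of them in all subsets. The 3 neighbours Tas2r137, Tas2r108 and Tas2r138 gave 29.8% of all Tas2r counts in Tspan8neg MHCIIlo, 35.03% in Tspan8pos MHCIIlo, 30.6% in Tspan8pos MHCIIhi and 34.2% of the 38 counts in Tspan8neg MHCIIhi. The largest group gave 60.3%, 60.5%, 62.1% and 63.2% in the same order. All 3 genes of the former passed the filter on low counts described next, 9 of 25 of the latter did, and none of the 4 in the table from chr6:42140936-42435464. Within the largest group, the 6 genes of the first stretch (chr6:131629823-131690063, with Tas2r104 and Tas2r105) gave 20.1% of Tas2r counts in Tspan8neg MHCIIlo and 11.8% in Tspan8pos MHCIIlo. The 19 of the second stretch (chr6:132656953-133096015) gave 40.2% and 48.8%. In MHCIIhi the first stretch gave 21.1% in Tspan8neg and 9.68% in Tspan8pos, and the second 42.1% and 52.4%. The first stretch thus held a smaller share in both Tspan8pos subsets. These shares pool the 2 libraries of a subset and were not tested.

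**Figure D3:**
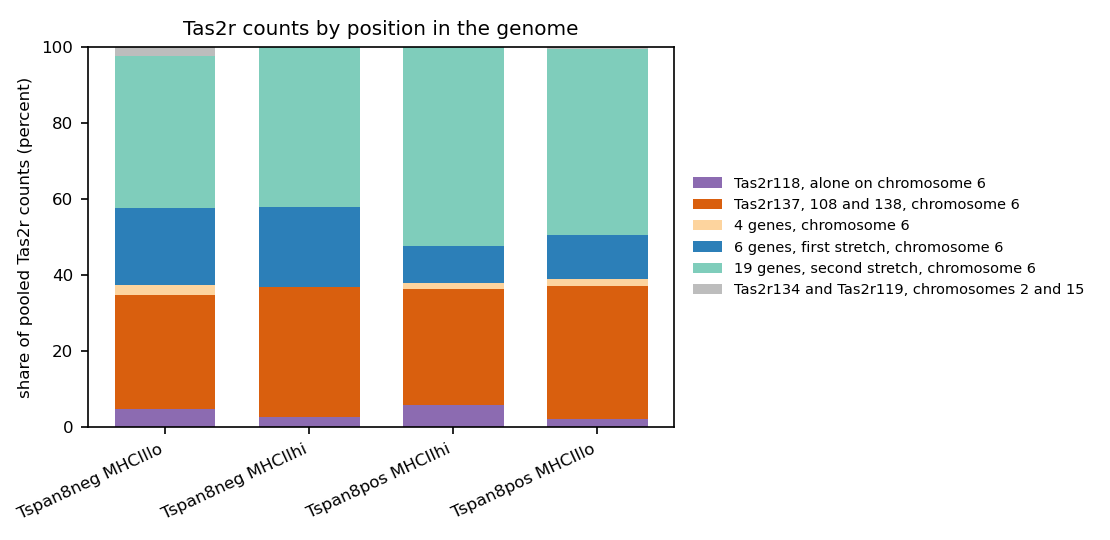
Share of all Tas2r counts, pooled over the 2 libraries of a subset, that came from each genomic group of Tas2r genes. The group of Tas2r137, Tas2r108 and Tas2r138 holds between 29.8% and 35.03% in every subset; the Tspan8neg MHCIIhi bar rests on 38 counts.

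Whether receptor expression differed with MHCII level was tested gene by gene, with edgeR's quasi-likelihood test on all 8 libraries over the 17006 genes that passed a filter on low counts. Calls needed a Benjamini-Hochberg adjusted p below 0.01 together with a log2 fold change of 1 or more in size. Only 13 Tas2r genes passed the filter: Tas2r102, Tas2r104, Tas2r105, Tas2r108, Tas2r109, Tas2r113, Tas2r115, Tas2r117, Tas2r118, Tas2r123, Tas2r137, Tas2r138 and Tas2r142-ps5. The filter needs enough counts in any 2 libraries, of the same subset or not. A gene that passed through MHCIIlo libraries alone was picked for its level there, so a lower level in MHCIIhi was partly set by the filter. The 13 do not stand for the 22 that failed.

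In Tspan8neg mTECs, 8 of the 13 were called higher in MHCIIlo than in MHCIIhi and none lower. Of all genes tested, 9.67% were called higher in MHCIIlo and 13.1% in MHCIIhi. Tas2r108 had 37 and 52 counts in the MHCIIlo libraries and 1 and 6 in the MHCIIhi libraries. Its log2 fold change, MHCIIhi over MHCIIlo as for all that follow, was -4.32 (SE 0.55, adjusted p = 0.000111 by edgeR). Tas2r138 gave 27 and 38 counts against 0 and 3 (log2 fold change -5.01, SE 0.70, adjusted p = 0.000216). Tas2r105 gave 43 and 41 counts against 1 and 2 (-5.37, SE 0.76, adjusted p = 0.000227). These 3 receptors had at least 27 counts in each MHCIIlo library and at most 6 in an MHCIIhi library.

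Tas2r137 (14 and 25 counts against 2 and 1) and Tas2r118 (13 and 18 against 0 and 1) were called on fewer counts, with log2 fold changes of -4.21 (SE 0.89, adjusted p = 0.00298) and -5.27 (SE 1.00, adjusted p = 0.00157). Pooled over libraries, Tas2r118 was 49.8-fold higher in MHCIIlo, with a 95% counting interval of 8.30 to 2029. The remaining 3 were at 0 in both Tspan8neg MHCIIhi libraries. Their folds are given as at least the observed MHCIIlo level over a floor of 3 counts in the MHCIIhi subset. These folds leave out the counting error of the MHCIIlo counts and are not 95% limits. Tas2r142-ps5 (35 and 20 counts in MHCIIlo, adjusted p = 0.000152) was at least 29.4-fold higher, Tas2r102 (15 and 21, adjusted p = 0.00281) at least 19.3-fold and Tas2r113 (6 and 18, adjusted p = 0.00362) at least 12.8-fold. For all 8 genes the libraries of the subsets did not overlap.

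The other 5 tested genes did not pass the threshold. Tas2r104 had 16 and 12 counts in MHCIIlo against 0 and 5 in MHCIIhi. Tas2r109 had 5 and 17 against 0 and 3, and Tas2r115 5 and 15 against 0 and 3. Tas2r117 had 2 and 21 against 0 and 5, and Tas2r123 7 and 1 against 0 and 1. All 5 had fitted values below 0 and adjusted p between 0.0158 and 0.0619, and among them Tas2r117 was the one gene whose libraries overlapped. Without Tspan8neg MHCIIhi replicate 1 or without replicate 2, the calls were the same 4 genes, Tas2r105, Tas2r108, Tas2r138 and Tas2r142-ps5.

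Over all 35 genes, tested or not, 26 had both Tspan8neg MHCIIlo libraries above both Tspan8neg MHCIIhi libraries in CPM, and no gene had the reverse. Among all genes of the table, 27.3% had the first order and 35.4% the second. Other lists moved in this comparison too. Of 8 tested thymocyte markers, 6 were called higher in MHCIIlo, with summed levels of 450 and 1340 CPM against 74.9 and 163. In the same 2 MHCIIlo libraries the Tas2r sum was 82.7 and 91.9 CPM. Cortical epithelial markers (2 of 5 called higher in MHCIIlo, 944 to 1150 CPM against 261 to 291) and endothelial markers (3 of 4, 115 to 124 CPM against 24.4 to 30.4) were higher as well. B cell and plasma cell markers had 1 of 5 called (88.2 to 156 CPM against 34.9 to 44.1), and fibroblast markers 3 of 6 called higher and 2 lower in MHCIIlo (143 to 293 CPM against 211). No gene of these lists was at 0 in both libraries of a subset, and their part in the Tas2r result was not tested.

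In Tspan8pos mTECs, 2 of the 13 genes, Tas2r108 and Tas2r138, were called higher in MHCIIlo and none higher in MHCIIhi, where 2.62% and 4.59% of all genes tested were called in these directions. Tas2r108 had 26 and 118 counts in MHCIIlo libraries of very different depth, or 13.4 and 15.2 CPM, against 6 and 14 counts, or 1.10 and 2.71 CPM, in MHCIIhi (log2 fold change -2.91, SE 0.46, adjusted p = 0.00145 by edgeR). Tas2r138 had 16 and 54 counts (8.24 and 6.94 CPM) against 4 and 2 (0.736 and 0.387 CPM), with a log2 fold change of -3.67 (SE 0.64, adjusted p = 0.0026). For both genes the subsets did not overlap. The calls depended on single libraries: there was none without Tspan8pos MHCIIhi replicate 1 or without Tspan8pos MHCIIlo replicate 2, only Tas2r108 was called without the other replicate of either subset, and 4 genes were called without Tspan8neg MHCIIlo replicate 1.

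The uncalled receptors pointed the same way in their counts. Tas2r105 had 7 and 43 counts in Tspan8pos MHCIIlo against 1 and 8 in Tspan8pos MHCIIhi, Tas2r142-ps5 12 and 63 against 8 and 8, and Tas2r137 6 and 48 against 10 and 2. Tas2r117 had 8 and 56 against 2 and 5, Tas2r123 9 and 45 against 3 and 7, and Tas2r115 3 and 32 against 3 and 6. Tas2r104 had 4 and 19 against 1 and 0, Tas2r109 4 and 17 against 3 and 0, and Tas2r113 2 and 24 against 1 and 3. In each of these 9 the CPM of both MHCIIlo libraries exceeded those of both MHCIIhi libraries. The exceptions were Tas2r118, with 1 and 15 counts against 4 and 3 (log2 fold change -1.13, SE 0.82, adjusted p = 0.406), and Tas2r102, with 0 and 16 against 2 and 6. Over all 35 genes, 19 had both MHCIIlo libraries above both MHCIIhi libraries and none the reverse, against 21.1% and 25.4% of all genes of the table. Endothelial markers were again called higher in MHCIIlo (3 of 4, 80.3 to 99.9 CPM against 24.6 to 25), and no thymocyte or cortical epithelial marker was called. Of the fibroblast markers 1 of 6, Col3a1, was called higher in MHCIIlo (summed level 99.9 and 116 CPM against 71.2 and 71.5). No B cell or plasma cell marker was called, at summed levels of 44.3 and 40.7 CPM against 18.6 and 23.8. The part of these lists in the Tas2r result was not tested.

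**Figure D4:**
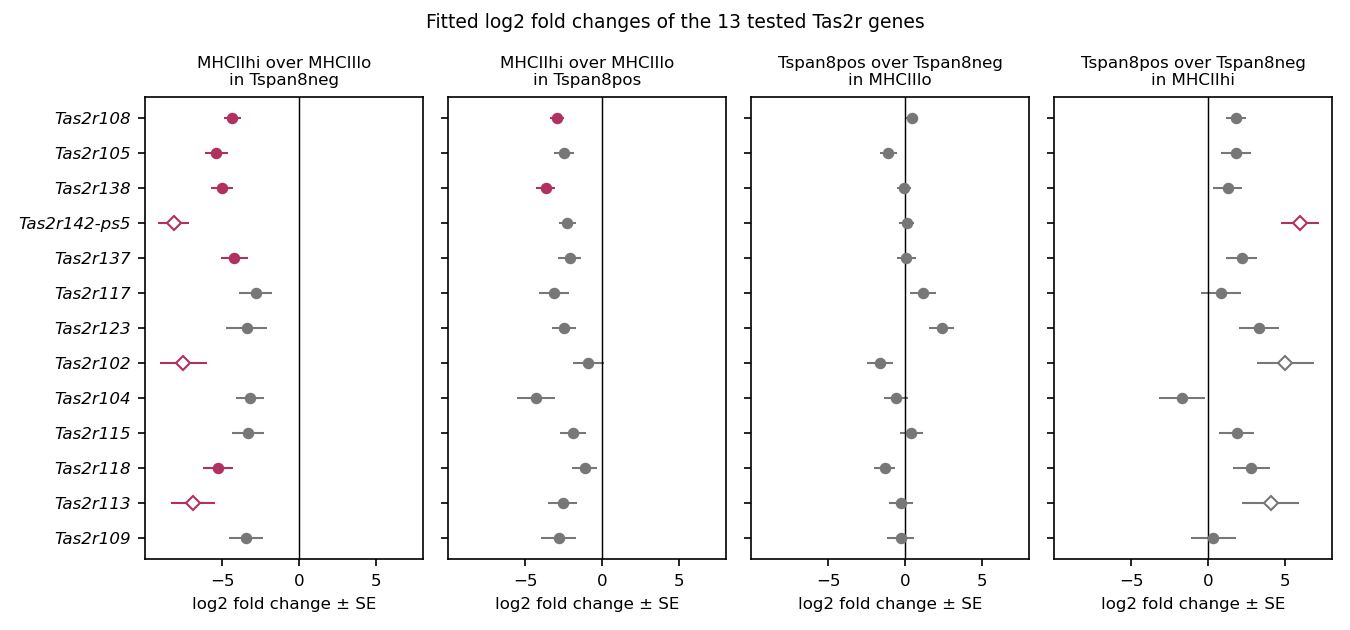
Fitted log2 fold changes with their standard errors for the 13 tested Tas2r genes in 4 comparisons between subsets. Red marks genes called at an adjusted p under 0.01, and open diamonds mark genes with no count in 1 of the subsets, whose fitted value is no measure of size; 8 and 2 genes are called in the MHCII comparisons on the left, none and 1 in the Tspan8 comparisons on the right.

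As a sum, the 22 genes that were not tested followed the same pattern at lower counts. Together they had 61 and 62 counts in Tspan8neg MHCIIlo, 19 and 98 in Tspan8pos MHCIIlo, 4 and 8 in Tspan8pos MHCIIhi and 2 and 2 in Tspan8neg MHCIIhi. In CPM this was 17.6 and 15.8, 9.79 and 12.6, 0.736 and 1.55, and 0.439 and 0.274. Every one of them had a count in at least 1 MHCIIlo library, and 12 had none in any of the 4 MHCIIhi libraries. Since 12 of the 22 had 10 counts or fewer in total, libraries without a count say little about single genes. How often other genes of like depth had no count was not computed. The most abundant was the pseudogene Tas2r141-ps4, with 31 counts in all and 14 at most in a library. With the filter left out, so that all 35 genes entered the fit, the calls in each comparison were the same genes as with it. Of all 25466 genes, 6.37% were then called higher in MHCIIlo and 9.98% in MHCIIhi in Tspan8neg mTECs, and 2.02% and 3.72% in Tspan8pos mTECs. For Tspan8pos against Tspan8neg, 8.62% were called higher and 6.55% lower in MHCIIlo and 7.45% and 5.64% in MHCIIhi, and the interaction was called for 2.32% and 2.65%.

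Whether Tspan8pos cells differed from Tspan8neg cells was asked within each MHCII level. In MHCIIlo, none of the 13 tested receptor genes was called in either direction, while 12.1% of all genes tested were called higher in Tspan8pos and 9.34% higher in Tspan8neg. DESeq2 also called none, and 1 gene had an unadjusted p under 0.05 in the edgeR test. That gene, Tas2r123, had 9 and 45 counts in Tspan8pos against 7 and 1 in Tspan8neg, or 4.64 and 5.78 CPM against 2.03 and 0.255 (log2 fold change 2.40, SE 0.83, adjusted p = 0.0376). It was called without Tspan8neg MHCIIlo replicate 1, and 7.1% of its read-length stretches are shared with Tas2r110.

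Tas2r138 overlapped between the MHCIIlo subsets, at 7.81 and 9.67 CPM in Tspan8neg and 8.24 and 6.94 in Tspan8pos. Its log2 fold change, Tspan8pos over Tspan8neg, was -0.06 (SE 0.48, adjusted p = 0.942). Tas2r118 was lower in both Tspan8pos libraries, at 0.515 and 1.93 CPM against 3.76 and 4.58, with a log2 fold change of -1.32 (SE 0.70, adjusted p = 0.159) that did not pass. Across the 13 genes, 6 fitted values were above and 7 below 0, from -1.60 to 2.40, with a median of -0.06 beside -0.03 over all genes tested. Among all 35 genes, 4 (Tas2r108, Tas2r111-ps2, Tas2r123 and Tas2r125) had both Tspan8pos libraries above both Tspan8neg libraries and 11 the reverse, against 21.4% and 31.2% of all genes of the table. A p that misses the threshold does not show that the receptors were equal.

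The genes that mark tuft cells behaved otherwise in the same comparison. All 20 tuft cell markers were called higher in Tspan8pos MHCIIlo than in Tspan8neg MHCIIlo, with a median log2 fold change of 2.66. Their summed level was 1686 and 2356 CPM in Tspan8neg MHCIIlo and 9547 and 9240 CPM in Tspan8pos MHCIIlo, a 4.65-fold ratio of means, while the ratio of the Tas2r sums was 0.822 (0.923 with TMM-scaled library sizes). Tas2r counts per 1000 tuft marker counts were thus 49.1 and 39.0 in Tspan8neg MHCIIlo and 6.31 and 9.01 in Tspan8pos MHCIIlo. They were 5.40 and 6.71 in Tspan8pos MHCIIhi and 1.73 and 5.20 in Tspan8neg MHCIIhi. Tspan8neg MHCIIlo thus stood apart from the other 3 subsets in receptor counts relative to tuft markers. Spib, which other mTECs also express, gave 513 and 540 of the 762 and 841 CPM of the marker sum in Tspan8neg MHCIIhi. It gave 357 and 424 of 1773 and 2078 CPM in Tspan8pos MHCIIhi and 299 and 428 of 1686 and 2356 CPM in Tspan8neg MHCIIlo. In Tspan8pos MHCIIlo, Spib was highest in CPM and gave 828 and 724 of 9547 and 9240 CPM. No test of this ratio was made. The pseudogenes, at 12.7 and 8.14 CPM in Tspan8neg MHCIIlo, 0.22 and 0 in Tspan8neg MHCIIhi, 1.66 and 1.74 in Tspan8pos MHCIIhi and 9.79 and 10.9 in Tspan8pos MHCIIlo, were the smaller share of the Tas2r sum, and its MHCIIlo ratio was 0.799 without them.

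Genes of the taste cascade fell on both sides. Trpm5, the cation channel at the end of the cascade, was at 352 and 512 CPM in Tspan8neg MHCIIlo and 1918 and 1983 in Tspan8pos MHCIIlo (log2 fold change 2.35, SE 0.17, adjusted p = 1.92e-06 by edgeR). Plcb2, the phospholipase, was at 323 and 501 against 783 and 812 CPM (1.13, SE 0.20, adjusted p = 0.00104). Pou2f3 was at 58.7 and 83.7 against 321 and 318 CPM (2.33, SE 0.16, adjusted p = 1.1e-06). Gnat3, the gustducin subunit that couples the receptors, was at 99.2 and 135 against 120 and 128 CPM and did not pass (0.26, SE 0.29, adjusted p = 0.511). The Gnat3 levels of the MHCIIlo subsets overlapped, as those of Tas2r138 did, while the subsets did not overlap in Trpm5, Plcb2 and Pou2f3.

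Of the 17 genes of the cascade list, 14 were tested, and 6 of these were called higher in Tspan8pos MHCIIlo and none lower. By role, 4 of 5 tested effector and channel genes (Plcb2, Trpm5, Trpm4 and Calhm3) were called, and 1 of 5 genes of the G protein list (Gng13). That list includes Rgs21, a regulator of G proteins. Also called were 1 of 2 sweet and umami receptors (Tas1r3, the shared subunit) and neither of 2 tested receptor chaperones. Both chaperones had fitted values below 0: Rtp4 was at 83.3 and 59.1 CPM in Tspan8neg against 35.5 and 32.9 in Tspan8pos (-0.90, SE 0.21, adjusted p = 0.00492), under the limit on fold change, and Reep2 at 4.92 and 2.04 against 1.03 and 0.39 (-2.44, SE 0.80, adjusted p = 0.0312). The median log2 fold changes of the effector and G protein lists were 1.13 and 0.26. Between MHCII levels the cascade moved with the receptors: 10 of the 14 genes were called higher in Tspan8neg MHCIIlo than in Tspan8neg MHCIIhi, among them Gnat3, Gnb3, Gng13, Rgs21 and Rtp4, and 8 higher in Tspan8pos MHCIIlo than in Tspan8pos MHCIIhi. None was called the other way. Gnat3 was at 99.2 and 135 CPM in Tspan8neg MHCIIlo, 2.86 and 11.4 in Tspan8neg MHCIIhi and 29.1 and 31.6 in Tspan8pos MHCIIhi. The MHCIIhi subsets thus stood in the same order as in the Tas2r sum, while in the MHCIIlo subsets Gnat3 overlapped. Tuft markers were called higher in MHCIIlo for 16 of 20 in Tspan8neg and 18 of 20 in Tspan8pos mTECs.

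**Figure D5:**
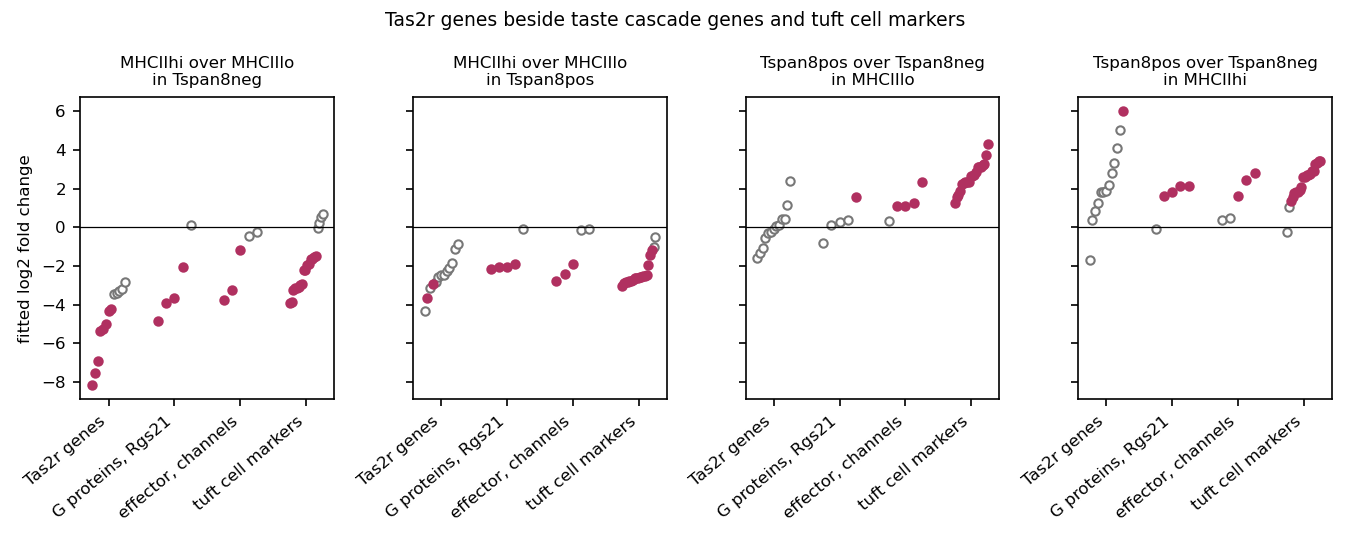
Fitted log2 fold changes of the 13 tested Tas2r genes, 5 genes of the G protein list (Rgs21 included), the 5 tested effector and channel genes and the 20 tuft cell markers in 4 comparisons. Red points are called at an adjusted p under 0.01; in the comparison of Tspan8pos with Tspan8neg in MHCIIlo all 20 tuft markers are called above 0, while Tas2r genes lie on both sides of 0 and none is called.

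Other lists also differed between the MHCIIlo subsets. Thymocyte markers were lower in Tspan8pos MHCIIlo (4 of 8 tested called lower, 119 and 212 CPM against 450 and 1340), as were cortical epithelial markers (3 of 5, 399 to 451 CPM against 944 to 1150). B cell and plasma cell markers had 2 of 5 called lower and 1 higher, fibroblast markers 1 of 6 lower, and endothelial markers 1 of 4 each way. What share these cells took of the Tspan8neg MHCIIlo libraries was not tested.

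In MHCIIhi, the Tas2r sum was 4.13-fold higher in Tspan8pos than in Tspan8neg mTECs, 2.69-fold without Tspan8neg MHCIIhi replicate 1 and 8.92-fold without replicate 2. Of the 13 tested genes, 1 was called higher in Tspan8pos and none lower, where 11.0% and 7.45% of all genes tested were called in these directions. It was the pseudogene Tas2r142-ps5, with 8 and 8 counts in Tspan8pos MHCIIhi and 0 in both Tspan8neg MHCIIhi libraries (adjusted p = 0.00368 by edgeR). Against the floor of 3 counts it was at least 5.97-fold higher, with the counting error of its Tspan8pos counts left out. This call was lost without any one of the 4 MHCIIhi libraries. Tas2r108 had 6 and 14 counts against 1 and 6, Tas2r137 10 and 2 against 2 and 1, and Tas2r102 2 and 6 against none, without passing. Tas2r138 had 4 and 2 counts against 0 and 3 (log2 fold change 1.29, SE 0.96, adjusted p = 0.321) and Tas2r118 4 and 3 against 0 and 1 (2.82, SE 1.21, adjusted p = 0.0896). Of the 35 genes, 8 had both Tspan8pos libraries above both Tspan8neg libraries and none the reverse, against 21.7% and 42.7% of all genes of the table. Of the cascade 9 of 14 tested genes were called higher in Tspan8pos MHCIIhi, Gnat3 (2.15, SE 0.37, adjusted p = 0.000879) and Trpm5 (2.79, SE 0.18, adjusted p = 9.46e-07) among them, and 18 of 20 tuft markers were.

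The dependence of the Tspan8 difference on MHCII level was tested as an interaction. It was called for none of the 13 receptor genes in either direction, beside 2.24% of all genes tested with the higher Tspan8pos to Tspan8neg ratio in MHCIIhi and 2.36% with the higher ratio in MHCIIlo. DESeq2 called none, and 4 genes had an unadjusted p under 0.05 in the edgeR test. The smallest adjusted p was that of Tas2r142-ps5 (0.0218), which was called without Tspan8neg MHCIIlo replicate 2. Tas2r138 (1.35, SE 1.07, adjusted p = 0.470) and Tas2r118 (4.14, SE 1.40, adjusted p = 0.0808) did not pass. A larger MHCII difference of the receptors in Tspan8neg than in Tspan8pos mTECs was therefore not established for any single gene. In the cascade list the interaction was called for Gnb3 (1.48, SE 0.26, adjusted p = 0.00506) and Rtp4 (2.64, SE 0.32, adjusted p = 0.000777), both with the higher Tspan8pos to Tspan8neg ratio in MHCIIhi.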

How the data were processed

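The deposited values are estimated counts, as whole numbers without normalization, in a single table. The authors quantified reads with Salmon 1.8.0 on Gencode transcripts (build mm10 per the labels), and the rounding step is not given in the sources used here. Labels name a stranded mRNA kit and the methods pre-amplified, transposase-fragmented cDNA, so use of strand is unsettled. Of 25466 identifiers, 25336 (99.49%) matched GENCODE vM21.

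Tests used edgeR 4.0.16 under R 4.3.3 (TMM, filterByExpr, 1 mean per subset, all 8 libraries; common dispersion 0.024). The standard error is the absolute log2 fold change over the root of F; tests are two-sided. Alternatives were DESeq2 1.42.0, its size factors, other filters and thresholds, only 4 libraries, a replicate block and leaving out each library. Scripts were tested on simulated data.

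Called means an adjusted p below 0.01 and a log2 fold change of at least 1 in size. Tested Tas2r genes are named with counts in all libraries, and with fold changes where called, as are Tas2r138 and Tas2r118 throughout. Gnat3, Plcb2, Trpm5 and Pou2f3 are given from the cascade and tuft lists. The fold changes of Tas2r123, Gnb3, Rtp4 and Reep2, the call of Col3a1 and the level of Spib were added after their values were seen. Members and lists (taste cascade, tuft, mTEC, cortical epithelial, thymocyte, B cell, fibroblast, endothelial) were chosen with earlier results of these data known. Totals run from 1941518 to 7783841. The floor of 3 counts, the 95% intervals (exact, on pooled counts) and CPM cover counting error only, since amplified reads are not independent molecules. A fold written as at least leaves out the counting error of the higher subset. Promoter windows are from RefSeq on GRCm38.p6.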

Additional observations from a re-analysis of the deposited data

How the results depend on the processing

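With at least 10 counts required in 4 libraries, only 4 members were tested. In Tspan8neg mTECs all 4 were called higher in MHCIIlo, beside 1505 of 15301 genes. At an adjusted p of 0.05 the count was 11 of 13 members, beside 2032 of 17006 genes. In Tspan8pos mTECs it was 6 of 9 tested members with only the 4 libraries of the contrast, beside 551 of 15233 genes. At an adjusted p of 0.05 it was 5 of 13, beside 638 of 17006 genes. Called higher in Tspan8pos at an adjusted p of 0.05 were 1 member in MHCIIlo and 2 in MHCIIhi, beside 2399 and 2142 of 17006 genes. In MHCIIhi the count was 0 with only 4 libraries, where no member passed the filter. The interaction count was 1 at an adjusted p of 0.05, with the higher Tspan8pos to Tspan8neg ratio in MHCIIhi, beside 881 of 17006 genes. Leaving out single libraries also moved each of these counts. The cause of these shifts was not tested.

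Without single libraries the ratio of Tas2r sums ran from 19.9 to 66.3 for MHCIIlo over MHCIIhi in Tspan8neg and from 2.69 to 8.92 for Tspan8pos over Tspan8neg in MHCIIhi. Other scalings, and leaving out the pseudogenes, moved each of the 4 ratios by less than its spread. Of the 65 fitted values of the 13 tested genes over the 5 contrasts, 15 turned sign under some setting, 6 of them for Tspan8pos over Tspan8neg in MHCIIlo, 4 in the interaction, 3 in MHCIIhi, 2 for MHCIIhi over MHCIIlo in Tspan8pos and 0 in Tspan8neg. None of the 15 was called under any setting. Tas2r102 for MHCIIhi over MHCIIlo in Tspan8pos ran from -1.82 to 4.94, and Tas2r104 for Tspan8pos over Tspan8neg in MHCIIhi from -3.97 to 2.21. Those given as fold changes in the text were Tas2r138 for Tspan8pos over Tspan8neg in MHCIIlo and Tas2r118 for MHCIIhi over MHCIIlo in Tspan8pos. Tas2r138 was at 0.064 without Tspan8neg MHCIIlo replicate 2 and 0.089 without Tspan8pos MHCIIlo replicate 2 (-0.18 to 0.089 over all libraries left out). Tas2r118 was at 0.34 without Tspan8pos MHCIIlo replicate 2 (range -1.49 to 0.34). In the comparison given for Tas2r138, Tas2r142-ps5 had a fitted value of 0.11 with all libraries. It was at -0.33 and -0.13 without the same libraries as Tas2r138 (range -0.33 to 0.72).

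With the replicate number as a block, the calls were again 8, 2, 0, 1 and 0 of the receptor genes. Of 17006 genes, 1735 and 509 were then called higher in MHCIIlo in Tspan8neg and Tspan8pos mTECs, and 1927 higher in Tspan8pos in MHCIIhi. Deviations of same-numbered libraries correlated at 0.004 to 0.0924 over 6 pairs of subsets, so the numbers were not taken as pairs. The interactions of Gnat3 (1.89, edgeR adjusted p = 0.0245) and Plcb2 (1.32, adjusted p = 0.0146) passed with the block (1.95 and 1.31), and also with DESeq2 and without a filter. With totals of 2 to 31 counts, the untested genes were too shallow to compare one by one.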
